A study of Rattus norvegicus with 20 samples.

Results

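Gata3, Foxa1, Elf3, Elf5, Ehf, Stat5a and Stat5b encode transcription factors that set up and maintain the luminal and milk-producing alveolar cells of the mammary gland. They were chosen by name, as the probes whose RefSeq accession belongs to one of the 7 genes, and 5 of the 7 had a probe, 1 each, among 36038 genes tested. Elf5 and Ehf had no probe with such an accession, so no level is given for them. RNA had been taken from radiation-induced mammary adenocarcinomas and from normal mammary tissue of age-matched female Sprague-Dawley (Jcl:SD) rats, and each of 20 samples was read on 1 single-colour Agilent array. Every rat, controls included, had received whole-body Cs-137 gamma rays (4 Gy at 0.5 Gy/min) at 7 weeks of age and was followed for 30 weeks on an unchanged diet, so no unirradiated tissue was compared. Obesity prone (OP) and obesity resistant (OR) rats ate a diet with 45 kcal% fat and were told apart by body weight at 7 weeks, whereas lean controls (LC) ate a diet with 10 kcal% fat. There were 6 OP, 3 OR and 3 LC cancers, and 3 OP, 2 OR and 3 LC normal tissues. Cancers had been picked for even histology with neither necrosis nor heavy infiltration, and which rat gave which sample is not stated, so each p describes only how these samples vary.

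The mammary duct has an inner luminal layer and an outer myoepithelial layer. GATA3 and FOXA1 act with the oestrogen receptor in hormone-sensing luminal cells, and in mice loss of Gata3 disturbs luminal differentiation. ELF5 and STAT5 drive alveolar cells: prolactin, through its receptor and JAK2, phosphorylates STAT5A and STAT5B, which then enter the nucleus and switch on milk genes, with STAT5A the more important of the pair for lactation in mice. ELF3, ELF5 and EHF belong to an epithelial branch of the ETS family. An mRNA level says nothing of STAT5 phosphorylation.

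Levels are log2 spot intensities after normexp background correction and quantile normalization. Each probe has its own brightness, so levels were compared between samples and not between genes. The number of arrays limits the precision. In cancers 61.3% to 79.3% of probes were well above background, against 87.7% to 97.7% in normal tissue. This difference in brightness made scaling a choice that matters below. All 10 measured luminal epithelial markers (12 fixed) were higher in cancers, with a median difference of 1.61, and all 10 measured adipocyte markers (11 fixed) were lower, with a median of -4.76. The defining adipocyte gene Adipoq averaged 6.98 in cancers and 15.24 in normal tissue. Of the other markers, 5 of 6 fibroblast, 3 of 3 endothelial, 4 of 5 nerve, 3 of 7 basal, 2 of 7 macrophage, 1 of 8 T and NK cell, 1 of 5 muscle and 1 of 4 keratinocyte genes were lower. Of these, 2 basal, 2 keratinocyte and 1 T and NK cell gene were higher. In bulk RNA a larger share of luminal cells and more RNA per luminal cell cannot be told apart.

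Gata3 and Stat5b were higher in cancers than in normal tissue under every scaling, Elf3 and Foxa1 were higher on the main scale but not under the 75th-percentile scalings, and Stat5a did not pass the test. In counts, 4 of the 5 measured factors were higher at an adjusted p under 0.05 (limma with Benjamini-Hochberg adjustment over all genes tested) and 0 were lower. Of all genes tested, 62.4% passed the same test, 29% being higher and 33.5% lower. The median difference of the 5 factors was 0.85 on the log2 scale, against -0.03 over all genes. In each difference the 3 obesity groups of a tissue had equal weight.

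**Figure D1:**
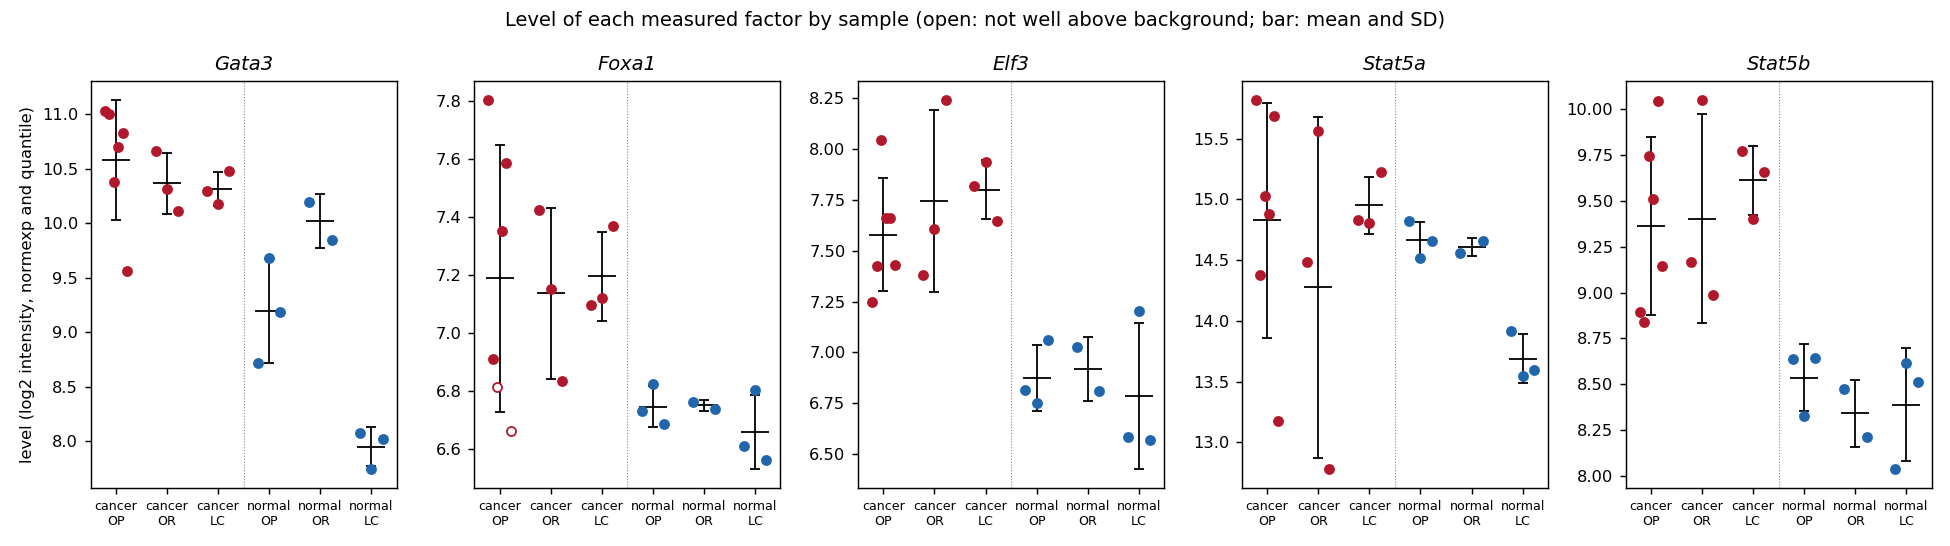
Log2 level (vertical axis) of each measured factor in every cancer (red) and normal tissue (blue), by obesity group, with the mean and SD of each group as bars. Open points are arrays on which the probe was not well above background. Stat5b and Elf3 were above all normal tissues in every cancer, Gata3 in normal tissue was lowest in the 3 LC samples, and Stat5a ranged from 12.78 to 15.82 in cancers.

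Gata3, on chromosome 17 (GRCr8, 73544234 to 73575670), ranged from 9.57 to 11.03 in the 12 cancers with a median of 10.43, against 7.74 to 10.19 with a median of 8.95 in the 8 normal tissues. OP cancer 6 was below both OR normal tissues and OP normal tissue 2, OR cancer 3 and LC cancer 2 were below OR normal tissue 1, and the other cancers were above every normal tissue. The difference was 1.37 (SE 0.180), a fold of 2.58, at an adjusted p of 8.01e-06 by limma. Within the 3 slides that held both tissues the cancer-minus-normal differences were 2.26, 1.80 and 1.65. Those slides held 2, 1 and 1 cancers and 2, 3 and 3 normal tissues, of mixed obesity groups, and the remaining slides held only cancers. With slide as a block in the fit, the difference was 1.68. It stayed past the threshold under every one of 13 alternative settings, at 1.37 to 1.68.

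Foxa1, a pioneer factor that opens chromatin for hormone receptors, lies on chromosome 6 (80838380 to 80871195). It ranged from 6.66 to 7.81 in cancers with a median of 7.14, against 6.56 to 6.82 with a median of 6.74 in normal tissue. The probe was dim: it was well above background in 10 of 12 cancers, failing in OP cancers 3 and 6, and in 8 of 8 normal tissues. Those 2 cancers were the ones that lay within the normal range. The difference was 0.46 (SE 0.138, adjusted p 0.00884 by limma), and it turned to -0.56 (adjusted p 0.0111) and -0.86 (adjusted p 0.0824) when arrays were scaled to their 75th percentile after normexp and with the processed signal. Within slides it was 0.78, 0.11 and 0.76.

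Elf3, on chromosome 13 (49242265 to 49247102), ranged from 7.25 to 8.24 in cancers with a median of 7.65, against 6.57 to 7.20 with a median of 6.81 in normal tissue. Every cancer was above every normal tissue on the main scale, which was true of 8.64% of all genes. On the processed signal relative to each array's 75th percentile the tissues overlapped, at -3.20 to -1.15 in cancers and -3.66 to -1.91 in normal tissue. The difference on the main scale was 0.85 (SE 0.130, adjusted p 3.39e-05 by limma). This too rested on the scaling, since it was -0.05 (adjusted p 0.776) and 0.14 (adjusted p 0.64) under the 75th-percentile scalings after normexp and with the processed signal. Within slides it was 0.83, 0.43 and 0.57.

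Stat5a and Stat5b are neighbours on chromosome 10, at 86285859 to 86310187 and 86205148 to 86276178, with 9680 bases between the gene spans, and they are transcribed away from each other. Their levels are described in turn. Stat5b ranged from 8.84 to 10.05 in cancers with a median of 9.46, against 8.04 to 8.64 with a median of 8.49 in normal tissue. All cancers were above all normal tissues, which was true of 8.64% of all genes. The difference was 1.04 (SE 0.175, adjusted p 8.77e-05 by limma), and it stayed past the threshold under all 13 alternative settings, at 0.77 to 1.32. Within slides it was 0.995, 0.37 and 0.71.

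Stat5a ranged from 12.78 to 15.82 in cancers with a median of 14.85, against 13.55 to 14.82 with a median of 14.53 in normal tissue. Cancers lay on both sides of the normal range. The difference was 0.36 (SE 0.350, adjusted p 0.381 by limma), with a 95% interval of -0.38 to 1.11. Whether Stat5b differed by more than Stat5a was not tested. Within slides the Stat5a difference was 0.95, 0.17 and 0.18.

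**Figure D2:**
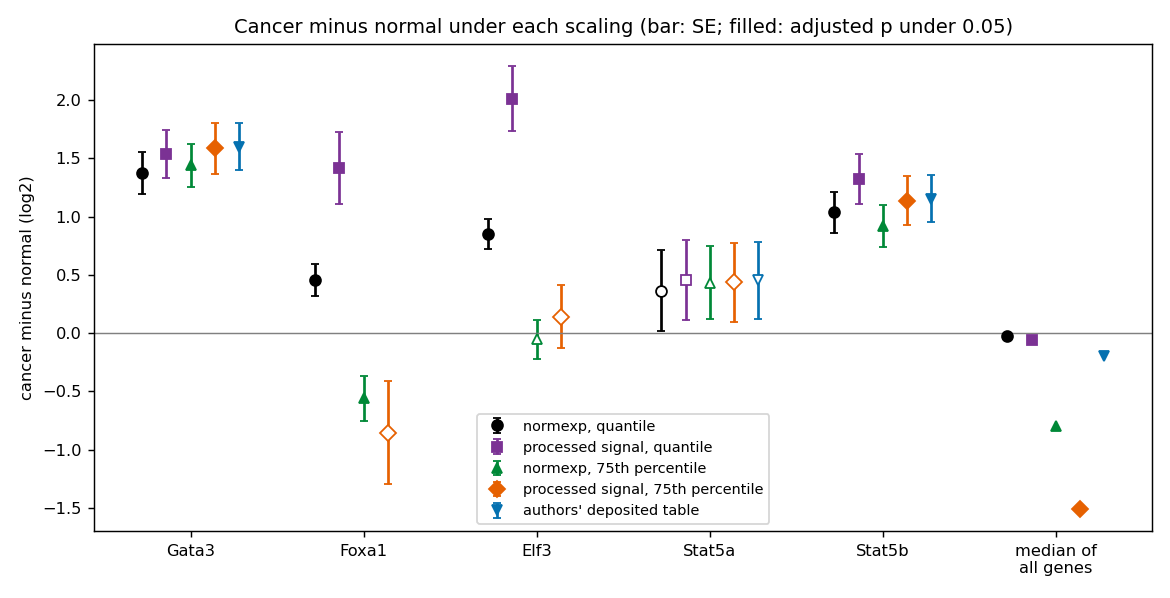
Cancer-minus-normal log2 difference (vertical axis) of each factor under 5 ways of scaling the arrays, with SE bars, and the median over all genes at the right. Filled points passed an adjusted p of 0.05, except the medians, which have no test. Gata3 and Stat5b passed under each scaling, while Foxa1 and Elf3 moved with the median of all genes, which was -0.80 and -1.51 under the 75th-percentile scalings.

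The scaling question concerned all genes. The median difference over all genes was -0.03 on the main scale and -0.80 and -1.51 under the 75th-percentile scalings after normexp and with the processed signal. The share of called genes that were higher in cancers was 46.4% on the main scale, against 17.3% and 17.7% under those scalings. Relative to that median, Foxa1 and Elf3 stood above it under each of them. Gata3, Stat5a and Stat5b are in the authors' deposited table, in which the differences recomputed with limma were 1.60, 0.45 and 1.15, and Gata3 and Stat5b passed the threshold.

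The windows of 250 bases before the RefSeq start of Gata3, Stat5a, Stat5b and Elf3 (GRCr8) are shown because 3 of these genes differed between tissues and their upstream DNA is where ETS, GATA, FOX and STAT factors could be looked for. Capitals mark GGAA, the core of ETS sites, or its reverse complement TTCC.
Gata3 (chr17:73553298-73553547, plus strand): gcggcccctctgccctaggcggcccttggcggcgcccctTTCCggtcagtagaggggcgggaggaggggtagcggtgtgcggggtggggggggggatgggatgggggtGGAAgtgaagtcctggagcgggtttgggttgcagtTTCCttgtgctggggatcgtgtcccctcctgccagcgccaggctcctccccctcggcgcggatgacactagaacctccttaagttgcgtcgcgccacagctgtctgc
Stat5a (chr10:86285609-86285858, plus strand): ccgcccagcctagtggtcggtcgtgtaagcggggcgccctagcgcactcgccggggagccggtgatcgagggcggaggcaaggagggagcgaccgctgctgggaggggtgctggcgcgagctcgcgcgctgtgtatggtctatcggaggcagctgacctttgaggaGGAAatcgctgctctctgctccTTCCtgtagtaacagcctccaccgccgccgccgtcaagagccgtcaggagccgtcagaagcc
Stat5b (chr10:86275953-86276202, minus strand): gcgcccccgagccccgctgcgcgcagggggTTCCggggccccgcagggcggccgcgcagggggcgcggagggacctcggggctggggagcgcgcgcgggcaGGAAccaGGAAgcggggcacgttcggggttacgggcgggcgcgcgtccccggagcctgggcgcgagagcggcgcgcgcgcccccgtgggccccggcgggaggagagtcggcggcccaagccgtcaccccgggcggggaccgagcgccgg
Elf3 (chr13:49247087-49247336, minus strand): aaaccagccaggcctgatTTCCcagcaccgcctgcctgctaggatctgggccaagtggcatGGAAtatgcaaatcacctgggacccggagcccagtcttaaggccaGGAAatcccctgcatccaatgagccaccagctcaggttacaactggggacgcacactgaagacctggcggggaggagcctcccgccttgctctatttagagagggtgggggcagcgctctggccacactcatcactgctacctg
The Gata3 window lies wholly inside the annotated gene span, and 226 bases of the Stat5b window and 16 of the Elf3 window do so. The core was found 3 times in the Gata3, Stat5b and Elf3 windows and 2 times in the Stat5a window. It was present in 93.2% of 33469 RefSeq windows of this length, with a median of 3 matches, so its presence is ordinary. On either strand, the GATA motif AGATAA had 0 matches in the 4 windows, against 10.3% of all windows holding it, and its other form TGATAA had 0, against 7.97%. The FOX motif TGTTTAC had 0, against 3.21%. The STAT motif TTCNNNGAA, which could overlap an ETS core, had 0, against 7.67%. The GC content was 68.4% for Gata3, 67.6% for Stat5a, 84% for Stat5b and 59.6% for Elf3, against a median of 51.2% over all windows.

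Within each obesity group the cancer-minus-normal comparison was repeated. In OP rats 3 of 5 factors were higher in cancers and 0 lower, where 44.5% of all genes were called (21.2% higher, 23.4% lower). In OR rats it was 2 of 5 and 0, where 28.4% were called (13.9% higher, 14.5% lower), and in LC rats 3 of 5 and 0, where 43.6% were called (19.9% higher, 23.6% lower). Stat5b was called in each group, at 0.83 in OP (adjusted p 0.0178), 1.06 in OR (adjusted p 0.0287) and 1.22 in LC (adjusted p 0.00448). Elf3 was called in each group too on the main scale, at 0.70, 0.83 and 1.01 in OP, OR and LC, and its sign turned in OP and OR under the 75th-percentile scalings. In LC it was then 0.25 (adjusted p 0.451 by limma) after normexp and 0.65 (adjusted p 0.229) with the processed signal, and 0.60 (adjusted p 0.147) without LC normal tissues 1 and 3, with no call. In fits blocked by slide or by scan day, or on scan day 2 alone, Stat5b and Elf3 lost their calls in OR and the count in OP fell to 1.

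Gata3 gave the widest spread across groups. In OP rats it was 9.57, 10.76 and 11.03 (lowest, median and highest of 6 cancers), against 8.72, 9.68 and 9.19 in the normal tissues, a difference of 1.39 (SE 0.270, adjusted p 0.000827 by limma). In OR rats it was 10.66, 10.32 and 10.11 in cancers, against 10.19 and 9.84 in normal tissues, and the difference of 0.35 (SE 0.349, adjusted p 0.490) did not pass. In LC rats it was 10.30, 10.17 and 10.48 in cancers, against 8.08, 7.74 and 8.02 in normal tissues, a difference of 2.37 (SE 0.312, adjusted p 3.76e-05). The 3 groups of cancers overlapped. The direct test of the OR effect against the LC effect, chosen after the data were seen, gave -2.03 (SE 0.469, unadjusted p 0.000509, adjusted p 0.202 by limma). It passed without OP cancer 6 (adjusted p 0.0420) or without LC normal tissue 1 (adjusted p 0.0467), and its adjusted p ranged from 0.0617 to 0.856 over the other settings. Without LC normal tissue 1, 746 of all 36038 genes were called in that test.

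No difference between obesity groups in the cancer effect passed for any factor. In OP against the mean of OR and LC, limma called 0 of 36038 genes (0%), with 1550 at an unadjusted p under 0.05, and 0 of 5 factors at either level. Gata3 differed by 0.03 (95% interval -0.73 to 0.79) and Stat5a by -0.30 (-1.77 to 1.17). For Gata3 this contrast averages effects of 0.35 in OR and 2.37 in LC, whose direct comparison did not pass. The added pairwise tests called 0 genes (0%) each, with 3032, 2919 and 957 at an unadjusted p under 0.05 for OP against LC, OR against LC and OP against OR. In each, 1 of 5 factors, Gata3, had an unadjusted p under 0.05. Besides OR against LC, given above, Gata3 differed by -0.98 for OP against LC (limma, unadjusted p 0.0299, adjusted p 0.511). For OP against OR it differed by 1.04 (limma, unadjusted p 0.0312, adjusted p 0.9999).

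Among cancers, the diet and obesity groups were compared directly. No gene passed in OP minus OR, OP minus LC or OR minus LC (limma, 0% each, with 3925, 2598 and 1508 at an unadjusted p under 0.05), and 0 of 5 factors had an unadjusted p under 0.05. Gata3 averaged 10.58 ± 0.552 in OP cancers (SD, n = 6), 10.37 ± 0.278 in OR cancers (n = 3) and 10.32 ± 0.156 in LC cancers (n = 3). The OP-minus-LC difference of 0.27 had a 95% interval of -0.35 to 0.89. Stat5a averaged 14.83 ± 0.969 in OP, 14.28 ± 1.40 in OR and 14.95 ± 0.235 in LC cancers, and its intervals were wide, at -0.83 to 1.93 for OP minus OR and -1.50 to 1.26 for OP minus LC. Stat5b averaged 9.36, 9.40 and 9.61, Foxa1 7.19, 7.14 and 7.20, and Elf3 7.58, 7.75 and 7.80 in OP, OR and LC cancers. The groups overlapped for each of the 5 factors.

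Normal tissue showed another picture for Gata3 and Stat5a. Their levels in LC normal tissues lay below those of every OP and OR normal tissue. Gata3 was 8.72, 9.68 and 9.19 in OP and 10.19 and 9.84 in OR, against 8.08, 7.74 and 8.02 in LC normal tissues. Stat5a was 14.82, 14.51 and 14.65 in OP and 14.56 and 14.66 in OR, against 13.92, 13.55 and 13.59 in LC normal tissues. All high-fat tissues were above all low-fat ones for 6.18% of all genes, and 10.3% of genes did not overlap in either direction.

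By test these differences did not pass. In OP minus LC Gata3 differed by 1.25 (SE 0.250, unadjusted p 0.00183, adjusted p 0.210) and Stat5a by 0.98 (SE 0.132, unadjusted p 0.000193, adjusted p 0.156 by limma). In OR minus LC Gata3 differed by 2.07 (SE 0.280, adjusted p 0.176) and Stat5a by 0.92 (SE 0.147, adjusted p 0.187 by limma). Limma called 0 of 36038 genes (0%) in each of the 3 normal tissue comparisons, with 221, 3182 and 3236 at an unadjusted p under 0.05 in OP minus OR, OP minus LC and OR minus LC. High-fat minus low-fat, a contrast added after the data were seen, gave 1.66 for Gata3 (SE 0.226, adjusted p 0.0776) and 0.95 for Stat5a (SE 0.119, adjusted p 0.0719), with 0% of genes called and 4379 at an unadjusted p under 0.05. Both passed with a mean-variance trend (adjusted p 0.0309 and 0.0442) and without LC normal tissue 1 (0.0297 and 0.0169), while their adjusted p reached 0.345 and 0.591 under other settings. Foxa1, Elf3 and Stat5b differed by 0.09, 0.11 and 0.05 in that contrast, and their groups overlapped. The Gata3 difference of OP minus OR normal tissues was -0.82, which did not pass (95% interval -1.49 to -0.15, unadjusted p 0.0229, adjusted p 1 by limma).

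The LC normal tissues were not alike in make-up. The epithelial index, the mean log2 level of Krt8, Krt18, Krt19, Epcam, Cdh1 and Cldn3, was 10.95, 13.30 and 11.64 in LC normal tissues 1, 2 and 3, against 13.10 to 13.50 in OP and OR normal tissues. LC normal tissue 2, with an index inside the range of the others, had the lowest Gata3 and the lowest Stat5a of the 8. The mean of the 10 hormone-sensing luminal genes was 8.84, 9.13 and 8.49 in LC normal tissues 1, 2 and 3, against 9.58 to 9.71 in OP and OR normal tissues, so LC normal tissue 2 was below the others on this list. The mean of 7 other mammary factors ranged from 10.68 to 11.18 in LC normal tissues, against 11.62 to 11.72. The mean of the 10 milk and alveolar product genes was 9.97, 14.16 and 12.16 in LC normal tissues 1, 2 and 3. It was 12.14 to 13.98 in OP and OR normal tissues, so LC normal tissue 2 was the highest of the 8 on this list. The mean level of 8 T and NK cell genes ranged from 7.82 to 10.80 in LC normal tissues, against 7.78 to 8.17 in OP and OR normal tissues, and Cd79b, a B cell gene, from 7.32 to 13.00, against 6.89 to 7.72. Leaving out LC normal tissues 1 and 3, the high-fat-minus-low-fat difference was 1.87 for Gata3 (adjusted p 0.0563 by limma) and 1.09 for Stat5a (adjusted p 0.0303), with 1 LC sample left. That sample was kept after its values were seen, and the spread came from the OP and OR tissues alone, so these p-values do not test the LC group. The part of cell make-up in the result was not tested further.

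**Figure D3:**
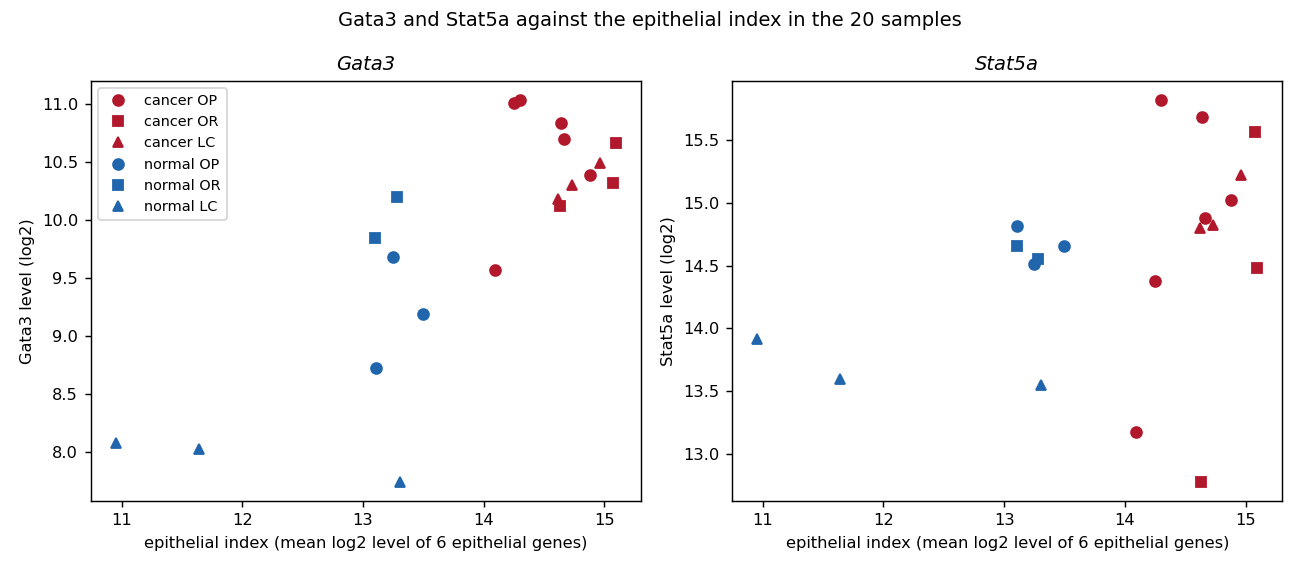
Log2 level of Gata3 and of Stat5a (vertical axes) against the epithelial index (horizontal axis, mean log2 level of 6 epithelial genes), one point per sample, cancers in red and normal tissues in blue. The 3 LC normal tissues had the lowest Gata3 at index values of 10.95, 11.64 and 13.30.

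The factors can be set beside genes of the epithelium as a whole. The epithelial index averaged 14.73 in cancers and 12.81 in normal tissue, a difference of 1.91. After subtracting the index on each array, 4 of 5 factors were lower in cancers, but so were 97.5% of all genes (97.7% called), so the count says nothing particular to the factors. Gata3 was nearest to the index, at -0.54 (SE 0.283, adjusted p 0.0611 by limma), followed by Stat5b at -0.88, Elf3 at -1.06, Foxa1 at -1.46 and Stat5a at -1.55. The median over all genes was -1.94, and each of the 5 factors was above it. None of the 5 was called higher relative to these structural genes on the main scale, where 0.172% of all genes were. On the processed signal with quantile normalization Elf3 was at 0.06 (adjusted p 0.832 by limma).

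The factors also varied among tumours. The SD over the 12 cancers was 0.933 for Stat5a, larger than for 98.5% of all genes, 0.428 for Stat5b, 0.416 for Gata3, 0.342 for Foxa1 and 0.293 for Elf3, against a median of 0.176 over all genes. Stat5a was lowest in OR cancer 3 (12.78) and OP cancer 6 (13.18) and highest in OP cancer 1 (15.82). In normal tissue the order was different: Gata3 had an SD of 0.932, larger than for 98.2% of genes, and Foxa1 one of 0.091. The small Foxa1 SD belongs to the main scale. On the processed signal relative to each array's 75th percentile, Foxa1 in normal tissue ran from -3.80 to -1.79. Spread was not compared among genes of like level, and Stat5a was brighter in cancers than 98.6% of genes.

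Over the 12 cancers, 10 pairs of factors were correlated. Foxa1 and Stat5a had a Pearson r of 0.730 and a Spearman rho of 0.685 (permutation p 0.00584 and 0.0169, adjusted over the 10 pairs 0.0496 and 0.0845, two-sided), and r was 0.560 without the 2 cancers farthest from the Foxa1 median. Gata3 and Foxa1 had an r of 0.703 and a rho of 0.685 (permutation p 0.00993 and 0.0169, adjusted 0.0496 and 0.0845), and r was 0.414 without the 2 farthest. Both relations passed by Pearson only, and r was lower in both without the 2 farthest cancers. With the processed signal scaled to its 75th percentile r was 0.557 for Foxa1 and Stat5a and 0.665 for Gata3 and Foxa1. The dim Foxa1 probe was not well above background in OP cancers 3 and 6. Stat5a and Stat5b, the adjacent genes, had an r of 0.535 (adjusted p 0.182), which was 0.935 among the 8 cancers of scan day 1. Within that day Gata3 and Foxa1 had an r of 0.859, and the other day held 4 cancers, too few for a value.

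Each factor was next set against lists of genes for luminal cell states, 15 relations chosen after the data were seen. Stat5a followed the mean of the 10 hormone-sensing luminal genes with an r of 0.901 and a rho of 0.916 (permutation p 5e-05 and 0.00016, adjusted over the 15 relations 0.00075 and 0.0024, two-sided). Foxa1 did so with an r of 0.887 and a rho of 0.874 (permutation p 0.00027 and 0.00055, adjusted 0.00202 and 0.00412). Without the 2 cancers farthest from the median on the horizontal axis r was 0.835 and 0.824, on scan day 1 (8 cancers) it was 0.891 and 0.927, and with the processed signal scaled to its 75th percentile 0.848 and 0.842. Gata3 had an r of 0.641 (adjusted p 0.116), which fell to 0.278 without the 2 farthest, Stat5b 0.461 and Elf3 -0.339, and none of these passed. Stat5a against the milk and alveolar product genes, the class STAT5 is known to switch on, had an r of 0.243 and a rho of 0.049 (adjusted p 0.615 and 0.938), and an r of 0.645 on scan day 1 (8 cancers). The mean of the milk list ranged from 8.69 to 14.43 in cancers, the lowest value being OP cancer 1, which had the highest Stat5a. None of the 5 factors passed against the epithelial index, the largest r being 0.596 for Stat5b (adjusted p 0.160).

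**Figure D4:**
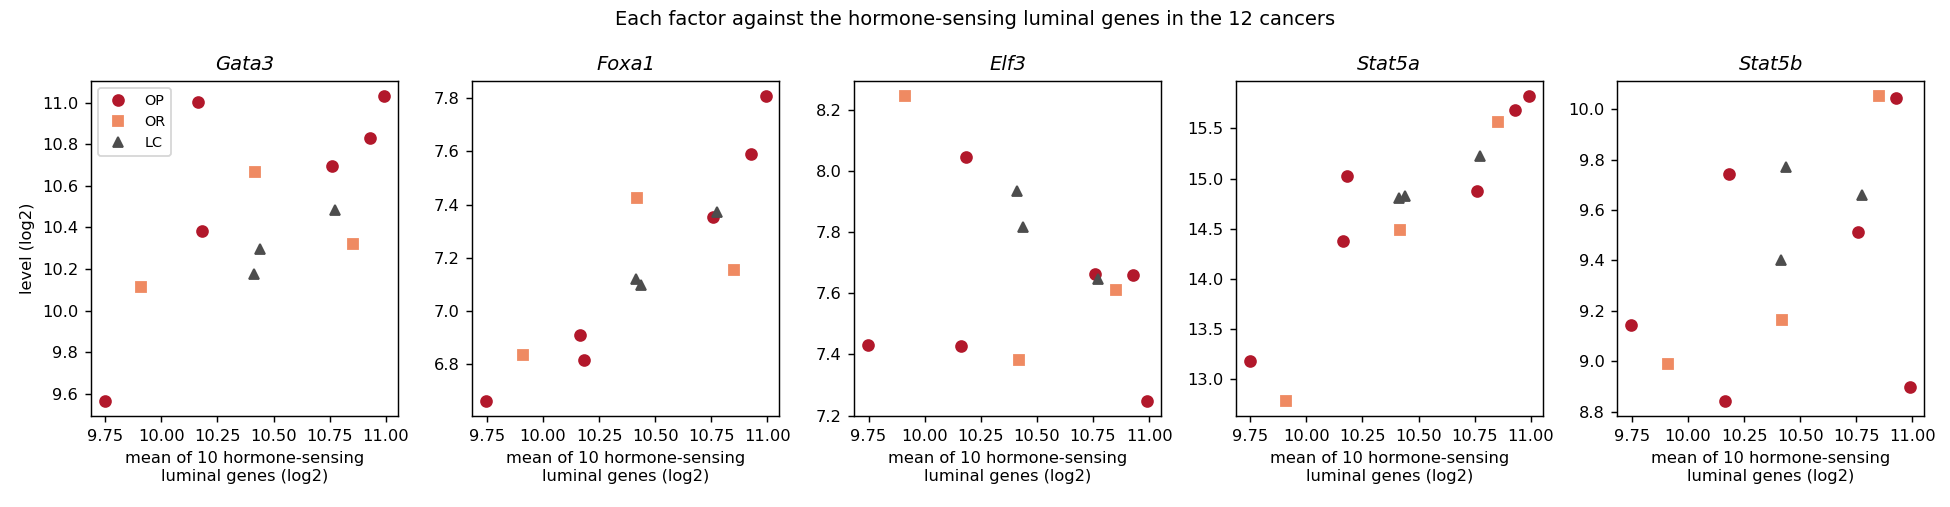
Log2 level of each factor (vertical axes) against the mean log2 level of 10 hormone-sensing luminal genes (horizontal axes) in the 12 cancers, with OP, OR and LC cancers marked apart. Stat5a and Foxa1 go up with the list (r 0.901 and 0.887), Gata3 more loosely (0.641), and Elf3 does not (-0.339).

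The genes whose levels were most like each factor over the 12 cancers were taken from 5715 named genes measured on all cancer arrays, as a description on points that share arrays and slides. For Gata3 they were Ube2z, Phkb and Ilkap (r 0.936, 0.926 and 0.910), and their r over the 8 normal tissues was 0.0885, 0.363 and -0.522. For Foxa1 they were Nudt6, Cep63 and Prlr, the prolactin receptor (0.930, 0.919 and 0.917, and 0.384, 0.326 and 0.704 in normal tissue). For Elf3 they were Fstl3, S1pr5 and Gpc4 (0.901, 0.898 and 0.896). Stat5a was most like Ica1, Cited4 and Osbpl1a (0.944, 0.926 and 0.907), which also followed it in normal tissue (0.643, 0.824 and 0.871). Stat5b was most like Tecpr1, Nsmf and Egln2 (0.950, 0.918 and 0.914).

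The partners and targets of the factors were described from lists. Of 10 measured hormone-sensing luminal genes (14 fixed), 7 were higher and 1 was lower in cancers, with a median of 1.17. Areg, an EGF receptor ligand induced by oestrogen, averaged 16.27 in cancers and 13.13 in normal tissue (difference 3.14, SE 0.475, adjusted p 3.01e-05 by limma). Cited1, an oestrogen receptor coactivator, averaged 16.89 and 14.38 (2.51), Wnt4, a progesterone target, 13.19 and 10.96 (2.23), and Pgr, the progesterone receptor, 8.22 and 6.51 (1.71) in cancers and normal tissue. These 4 passed under each scaling that measured them, and Prlr, also in this list, is described with the next. Esr1, the oestrogen receptor gene, was close to background, in 7 of 12 cancers and 7 of 8 normal tissues above it, and its difference of 0.36 turned to -0.60 and -1.32 under the 75th-percentile scalings.

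Of 10 measured genes of prolactin and STAT5 signalling (12 fixed), 2 were higher and 2 lower, with a median of -0.00. Prlr, the receptor that starts the pathway, averaged 9.65 in cancers and 8.47 in normal tissue (1.18, SE 0.274, adjusted p 0.00138 by limma). Ghr, the growth hormone receptor, which also signals through STAT5, averaged 7.83 and 11.87 (-4.05), and Cav1, an inhibitor of the pathway in mice, 7.41 and 8.17 (-0.76) in cancers and normal tissue. Ghr and Cav1 are also abundant in fat, and adipocyte markers were lower alongside them. The part of fat content in the Ghr and Cav1 differences was not tested. Socs1, a feedback inhibitor of JAK kinases, was higher by 0.88, but by -0.01 and 0.21 under the 75th-percentile scalings, where it did not pass.

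Of 10 measured milk and alveolar product genes (13 fixed), 1 was higher and 2 were lower, with a median of -0.83, which became 0.62 with slide as a block. Cel, bile salt-stimulated lipase, was higher by 0.99 on the main scale, but by 0.17 and 0.36 with no call under the 75th-percentile scalings. Xdh, needed for milk fat globule secretion, was lower by 1.37 (SE 0.407, adjusted p 0.00776 by limma), and Csn1s2b, a casein, differed by -0.29 near background (3 of 12 cancers above it). Wap, whey acidic protein, averaged 10.69 in cancers and 12.87 in normal tissue, a difference of -2.18 (SE 1.34, adjusted p 0.167) that did not pass.

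Of 7 measured luminal progenitor genes (9 fixed), 1 was higher and 2 were lower, with a median of -0.35. Kit, a receptor of luminal progenitors, differed by -0.80 (adjusted p 0.00102 by limma) and Cd14 by -1.47 (adjusted p 0.00399). Which cells of the bulk tissue gave the Kit and Cd14 differences was not tested. Notch3 did not pass, at -0.14. Aldh1a3, a retinal-oxidizing enzyme, was higher by 0.84, but by 0.22 and 0.40 with no call under the 75th-percentile scalings.

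The direction of the factors' relatives depended on the scaling, as did that of all genes. Of 8 measured ETS factors other than the members (22 fixed), 0 were higher and 2 were lower, with a median of -0.18. Under the 75th-percentile scalings after normexp and with the processed signal 5 were lower, with medians of -0.73 and -1.10, and 4 of the 7 in the authors' deposited table were, with a median of -0.62. Erg, an endothelial factor, averaged 8.03 in cancers and 10.10 in normal tissue (-2.07, SE 0.207, adjusted p 5.17e-07 by limma), and Spi1, a myeloid and B cell factor, 7.66 and 8.75 (-1.08). Etv6 and Fev did not pass on the main scale, at -0.20 and -0.10, and Fev was above background in 0 of 12 cancers. Among 9 measured GATA, FOXA and STAT relatives (12 fixed), 3 were higher and 1 was lower, with a median of 0.09. Under the same 75th-percentile scalings 0 were higher and 6 lower, with medians of -0.60 and -1.33, and 0 of the 7 in the authors' deposited table were higher and 4 lower. Gata6 averaged 7.23 in cancers and 8.83 in normal tissue (-1.59, SE 0.151, adjusted p 2.97e-07 by limma), opposite in sign to Gata3. Stat2 was higher by 0.76, though by 0.24 and 0.42 with no call under the 75th-percentile scalings. Stat6 and Foxa3, at 0.32 and 0.31, turned to negative values there.

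Of 7 measured other mammary factors and cofactors (18 fixed), 3 were higher and 2 were lower, with a median of 0.22. Klf5, a factor of epithelial proliferation, averaged 10.99 in cancers and 9.90 in normal tissue (1.09, SE 0.132, adjusted p 3.54e-06 by limma), and Klf4, linked to differentiation and growth arrest, 10.80 and 12.68 (-1.87). Runx1 was higher by 0.87, at 0.35 with no call with slide as a block. Id2, which in mice is needed for alveolar growth, was lower by 0.47, and was not called under the 75th-percentile scalings.

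**Figure D5:**
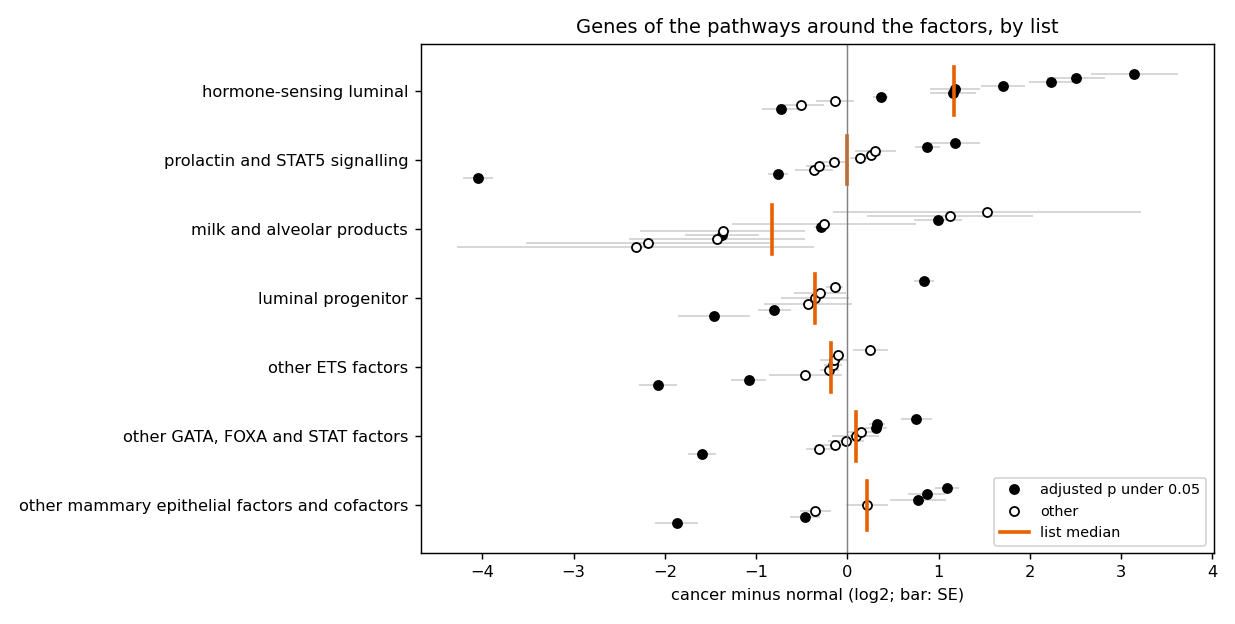
Cancer-minus-normal log2 difference (horizontal axis, SE bars) of each measured gene in the 7 lists, with filled points past an adjusted p of 0.05 and the median of each list as an orange line. The hormone-sensing luminal list has a median of 1.17, and the medians of the other lists lie between -0.83 and 0.22.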

How the data were processed

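The authors hybridised Cy3-labelled RNA to 1-colour Agilent Whole Rat Genome arrays, 1 per sample. Per the file headers, the scanner files hold spot, local background and processed signals as intensity, with quality flags (other, 0 or 1). Feature Extraction is given as 10.7.3.1 in the submitters' processing notes and as 9.5.1.1 in the headers. The authors' deposited value table holds log2 values: it matched the log2 processed signal minus each array's 75th percentile, centred per probe (r 0.9997, 20793 of 20824 rows matched, column medians -0.15 to 0.24). The design text names RMA, so normexp (offset 50, on median spot and background signals) and quantile normalization were used here.

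Of 41012 probes, 121 with an outlier mark on an array were dropped, as were 825 that in no group reached the scanner's flag for signal over background on a share of 0.5 of arrays, leaving 40066. The brightest probe stood for a gene. Symbols came from RefSeq accessions (GRCr8, 8991 of 13948 matched), so 8658 of 36038 genes had one. No 2 arrays were identical (highest r 0.993). Fits used limma 3.58.1 in R 4.3.3, and figures matplotlib 3.10.9. All 20 arrays entered cancer against normal; comparisons within a tissue used that tissue. In simulated data for cancer against normal (36038 genes), 88 of 100 genes changed by 1 and 59 of 100 changed by 0.5 were recovered, with 9 false calls. No other gene was changed there, the noise was independent, and slides and scaling played no part. The real comparison, with 62.4% of genes called, differs in these respects, so the counts describe the fit alone. Correlations used 100000 permutations.

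Members and gene lists were chosen with earlier results of these data known. Named were all 7 members, of each list up to 4 genes with the smallest p in cancer against normal, and 3 genes most like each member. Esr1 was named after its value was seen, as were Adipoq and Cd79b as markers. Arrays lay on 5 slides scanned on 2 days, and slides 1 to 3 held both tissues. Slides 4 and 5, scanned on day 1, held 8 of the 12 cancers and no normal tissue. All 8 normal tissues were scanned on day 2, so tissue was in part confounded with slide and scan day. Same-numbered replicates did not deviate together (40 pairs, r -0.35 to 0.28, 5 over 0.1), so numbers were not taken as pairs.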

Additional observations from a re-analysis of the deposited data

How the results depend on the processing

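Gata3 and Stat5b kept their calls in cancer against normal under all 13 alternatives, and all 4 called factors kept theirs in each of 20 fits that left out 1 sample. With the processed signal scaled to the 75th percentile, 2 of 5 factors were called across groups and 1 in OR. There Foxa1 was -0.86, Elf3 was -0.20 in OP and -0.0226 in OR, and 29130 of all 36038 genes were called across groups. After normexp with that scaling 1 factor was called in OR, and Foxa1 was -0.56 across groups and -0.65 in OP. Elf3 was then -0.0532 across groups, -0.23 in OP and -0.18 in OR. Of all genes, 29352 were called across groups in that fit and 24210 in OR. Of 3 factors in the table deposited by the authors, 2 were called across groups, 1 in OR and 2 relative to the epithelial index. Of all 18349 genes tested from that table, 12454 were called across groups and 17368 relative to the index. The processed signal with quantile normalization gave 2 factors relative to the index, with Elf3 at 0.0621. Slide or scan day as a block, or scan day 2 alone, left 1 in OP and 0 in OR. With the replicate block, 0 were called in OR. For high-fat minus low-fat in normal tissue, 2 factors were called with a mean-variance trend, 1 with all 20 arrays in the fit (as in OR minus LC) and 1 without LC normal tissues 1 and 3, where OP minus LC, OR minus LC and cancer against normal in LC also had 1. The causes were not tested.

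Leaving out 1 sample, counts of factors called ranged from 0 to 2 in cancer against normal in OR (0 without either OR normal tissue, 1 without OR cancer 2 or 3), from 0 to 1 for OR against LC, from 0 to 1 in OP minus LC, from 0 to 2 in OR minus LC and from 0 to 2 in high-fat minus low-fat, in normal tissue. For all genes, calls ran from 12454 to 29352 in cancer against normal, from 5904 to 25680 in OP, from 2261 to 24210 in OR and from 5019 to 25191 in LC, against 22496, 16053, 10238 and 15696 in the main fits. Relative to the index they ran from 17368 to 35973. Counts of 0 reached 24, 1025, 907 and 1 in the interactions (OP against both, OP against LC, OR against LC, OP against OR), 12, 26, 1 and 4 among cancers (OP minus OR, OP minus LC, OR minus LC, high-fat minus low-fat), and 1, 840, 1170 and 1800 among normal tissues in the same order. Leaving out OP cancer 6 gave 45 and 214 calls in OP minus OR and OP minus LC among cancers, and leaving out LC normal tissue 1 gave 659, 828 and 1969 in OP minus LC, OR minus LC and high-fat minus low-fat among normal tissues. Cancer against normal in OR gave 3588 calls without OR normal tissue 2. OP against LC and OR against LC gave 758 and 746 without LC normal tissue 1.

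Foxa1 was dim, which limits its precision.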
